A study of Camellia sinensis with 15 samples.

Results

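At 10 d of treatment, 131 of the 59128 genes measured in tea roots lay on opposite sides of untreated roots under Cd and As. In 74 of them every Cd1 library (Cd, 10 d) was below every CK library (untreated) and every As1 library (As, 10 d) was above every CK library. These are called the Cd-low/As-high genes here. In the other 57, the Cd-high/As-low genes, the order was turned round, with every As1 library below and every Cd1 library above every CK library. The members were chosen by these measured values on the log2(FPKM + 1) scale, where FPKM is the number of fragments of a gene scaled to its exon length and to the library. Each group mean also had to be at least 0.58 from the CK mean. The order and the distances at 10 d are therefore a description of the choice and carry no test. The opposite movement was defined on the 10 d libraries alone. At 15 d the group mean of Cd was below that of As in 35 of the 74, or 47.3% (51.2% of all tested genes), and above it in 38 of the 56 tested Cd-high/As-low genes, or 67.9% (48.8% of all tested genes).

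The roots came from wild-type 'Fuding Dabaicha' seedlings of Camellia sinensis grown in pots. The groups were Cd1 and Cd2, poured with 400 mL of a Cd (II) solution of 120 mg/kg and collected after 10 d and 15 d, As1 and As2, treated likewise with As (V), and CK, which received neither metal. As (V) is the form given in the study's methods, whereas a sentence of its results gives As (II). The days are those of the study, whereas every library, CK included, is labelled day 15. Each group has 3 labelled libraries, and no source used here says that they were separate plants, so the p-values below measure the spread between these samples, which may be technical. The library labelled Cd1 replicate 3 held the same values as Cd2 replicate 1 for all 59128 genes and was used only as Cd2 replicate 1. This left 14 libraries, with 2 in Cd1, 10483112 to 13846717 recovered fragments and 35674 to 39868 genes above 0 in each. The gene identifiers were paired with no names, positions or sequences in the files used here, so neither the root identity nor markers of other tissues could be checked, and the members are given by identifier. Genes outside the reference annotation carry a running number in the files and are given here as unannotated genes with that number.

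Cd enters roots as a divalent cation, largely through transport routes for iron, zinc, manganese and calcium. Arsenate resembles phosphate and enters through phosphate transporters, after which it is reduced to arsenite in the cell. Both metals bind thiols, lead to reactive oxygen species and are sequestered in vacuoles with phytochelatins in many plants.

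Orders with both metals on the same side of CK were counted at 10 d too. Every library had to keep the order, with both outer group means at least 0.58 from the middle group. By this rule 276 genes had the order Cd1 below As1 below CK, and 80 had As1 below Cd1 below CK. The order CK below As1 below Cd1 held in 34 genes, and CK below Cd1 below As1 in 9. The middle group here is a metal, so genes moved alike by both metals are left out. How common same-side changes were is therefore not read from these counts. At 15 d, under the same rule, 8 genes had the order Cd2 below CK below As2, and 17 had As2 below CK below Cd2.

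**Figure D1:**
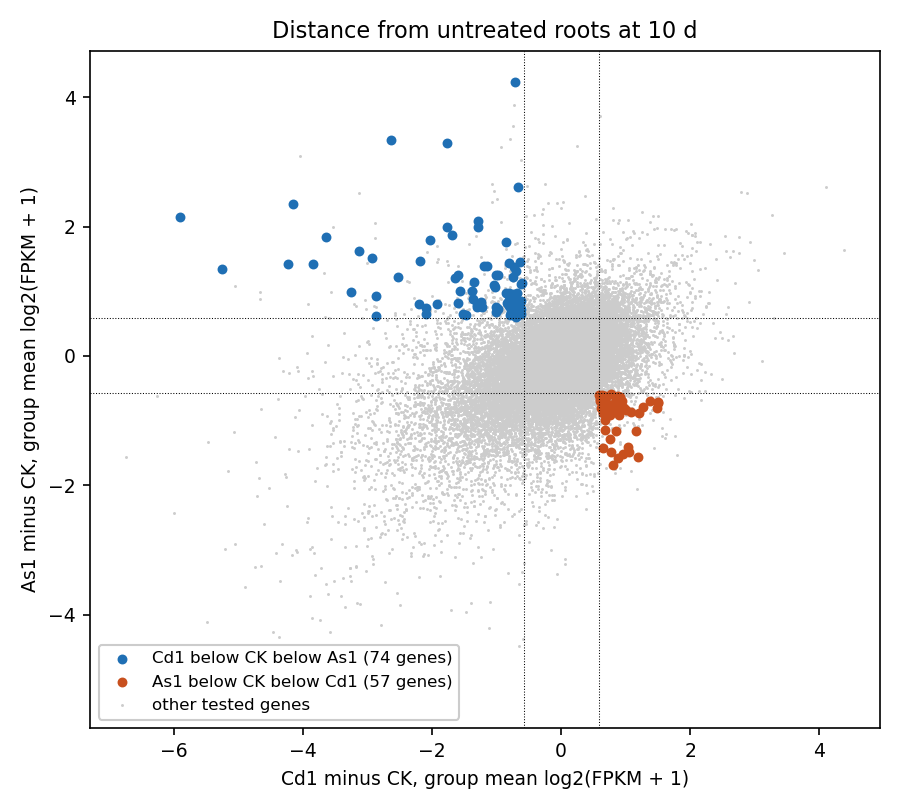
Distance of the Cd1 group mean (x axis) and of the As1 group mean (y axis) from the CK mean on the log2(FPKM + 1) scale, with 1 point per gene and dotted lines at -0.58 and 0.58. The 74 Cd-low/As-high genes reach -5.91 on the Cd axis and 4.23 on the As axis, and the 57 Cd-high/As-low genes stay between 0.58 and 1.51 on the Cd axis and between -1.69 and -0.59 on the As axis.

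The Cd-low/As-high genes were the more abundant. Their mean level over the 14 libraries had a median of 28.7 FPKM (range 0.742 to 839 FPKM), against 4.16 FPKM (0.617 to 509 FPKM) in the tested Cd-high/As-low genes and 6.01 FPKM in all 33109 tested genes. Tested genes had at least 1 FPKM in at least 3 of the 14 libraries. All 74 Cd-low/As-high genes passed this filter, also when the As1 libraries were not counted. Of the Cd-high/As-low genes 56 passed, and 53 passed without counting the Cd1 libraries. The exception was unannotated gene 4695, with 16 and 8 fragments in Cd1, 0 in each As1 library, and 4, 4 and 2 in CK. The median CK value rested on 229.5 fragments in the Cd-low/As-high genes and on 64 in the Cd-high/As-low genes. Under 10 fragments stood behind at least 1 CK library in 6 of the 74 and in 15 of the 57. In the low group this was more common, with at least 1 such Cd1 library in 18 of the 74 and at least 1 such As1 library in 24 of the 57. Genes outside the reference annotation made up 11 of the 74 and 8 of the 56 tested, or 14.9% and 14.3%, against 16.1% of all tested genes.

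The size of both lists depended on the libraries that chose them. Leaving out a library relaxes the order, and the number of Cd-low/As-high genes became 114 without CK replicate 2, 127 without CK replicate 3, 133 without Cd1 replicate 1, 114 without As1 replicate 1 and 169 without As1 replicate 2. For the Cd-high/As-low genes it became 88 and 92 without CK replicates 2 and 3, 283 without Cd1 replicate 1, 97 without Cd1 replicate 2, and 95 and 100 without As1 replicates 1 and 2. A pseudocount of 0.1 in place of 1 gave 87 Cd-low/As-high genes and 140 Cd-high/As-low genes. When the identical library was also counted as Cd1 replicate 3, 54 and 42 genes met the rule, 51 of the 74 and 37 of the 57 among them.

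Among the Cd-low/As-high genes the median distance from CK was -1.21 in Cd1 and 1.00 in As1, and the Cd1 distance was the larger in 41 of 74. Since whole roots were measured, fewer cells of a type and less RNA per cell cannot be told apart in these levels. The summed level showed the same order. It was 2066 and 2006 FPKM in Cd1, 11770, 13071 and 15245 FPKM in As1, and 4756, 6669 and 6330 FPKM in CK. In the fit over all 5 groups with limma-trend, 19 of the 74 were called lower in Cd1 than in CK (2.73% of all tested genes) and 11 were called higher in As1 than in CK (0.338% of all tested genes), where a call is an FDR under 0.05 and a change over 2-fold. These contrasts chose the genes, so nothing is read from the counts. CSS0032053 and CSS0035553 were the 2 genes called in both.

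CSS0035553 had the largest of the smaller distances from CK, the measure by which the genes with the widest split were picked. It had 1.23 and 4.5 FPKM in Cd1, 281, 126 and 301 FPKM in As1, and 9.86, 37.3 and 23.9 FPKM in CK. At 15 d its level was 11.5, 13.4 and 13.9 FPKM in Cd2 and 2.94, 13.8 and 5.29 FPKM in As2. All of these lie between the Cd1 and the As1 values except the first As2 library, which overlaps the Cd1 range, and the high As1 values were not seen at 15 d.

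A pair of unannotated genes came next, and both were nearly silent in Cd1. The level of unannotated gene 3549 was 0 and 0.507 FPKM in Cd1, 194, 208 and 859.7 FPKM in As1, and 66.1, 143 and 40.8 FPKM in CK. For unannotated gene 3904 it was 0.0721 and 0.225 FPKM in Cd1, 63, 57.3 and 300.2 FPKM in As1, and 17.4, 46.8 and 8.84 FPKM in CK. Their 15 d values scattered together. In unannotated gene 3549 they were 2.15, 30.6 and 103 FPKM in Cd2 and 1.3, 402 and 1.34 FPKM in As2, so that 1 As2 library lay within the As1 range and the other two close to Cd1. In unannotated gene 3904 they were 1.14, 13.3 and 44.3 FPKM in Cd2 and 0.0859, 112 and 0 FPKM in As2, with the same libraries high and low.

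CSS0001049 showed the same scatter at 15 d in an annotated gene, with 33.5, 76.3 and 79.7 FPKM in Cd2 and 17, 192 and 26.3 FPKM in As2. Its 10 d levels were 4.43 and 7.91 FPKM in Cd1, 176, 277 and 620 FPKM in As1, and 76.5, 105 and 80 FPKM in CK. CSS0038288 was -1.77 from CK in Cd1 and 3.29 from CK in As1 on the log2(FPKM + 1) scale. That scale shrinks the Cd1 distance at levels this low, and the group means were 0.322 FPKM in Cd1, 3.59 FPKM in CK and 41.7 FPKM in As1. The larger side is therefore not read from these distances. It had 0 and 0.643 FPKM in Cd1, 47.3, 38.8 and 39.1 FPKM in As1, and 1.79, 3.82 and 5.17 FPKM in CK, and at 15 d all 6 libraries had between 0.736 and 7.47 FPKM. The other genes with the widest split, unannotated genes 7033 and 2657 and CSS0003282, were -2.03, -1.77 and -1.70 from CK in Cd1 and 1.79, 1.99 and 1.87 from CK in As1.

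The 5 most abundant Cd-low/As-high genes were CSS0032053, CSS0041519, CSS0013753, CSS0042437 and CSS0018801. CSS0032053 had 357 and 427 FPKM in Cd1, 1728, 1699 and 1771 FPKM in As1, and 732, 1035 and 693 FPKM in CK, from at least 6938 fragments in each of these libraries. CSS0013753 had 54.1 and 46.8 FPKM in Cd1, 772, 1380.4 and 1308 FPKM in As1, and 355, 398 and 428 FPKM in CK. Its 15 d levels, 170.2, 407 and 234 FPKM in Cd2 and 161, 356 and 129 FPKM in As2, lay near or below CK under both metals. The smaller splits of CSS0041519, CSS0042437 and CSS0018801 were -0.98, -1.36 and -1.93 from CK in Cd1 and 0.72, 0.87 and 0.80 from CK in As1. At the limit of the rule, CSS0025951 and CSS0039446 lay just inside with smaller distances of 0.602 and 0.603, and CSS0016401 and CSS0049187 just outside with 0.579 and 0.577.

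**Figure D2:**
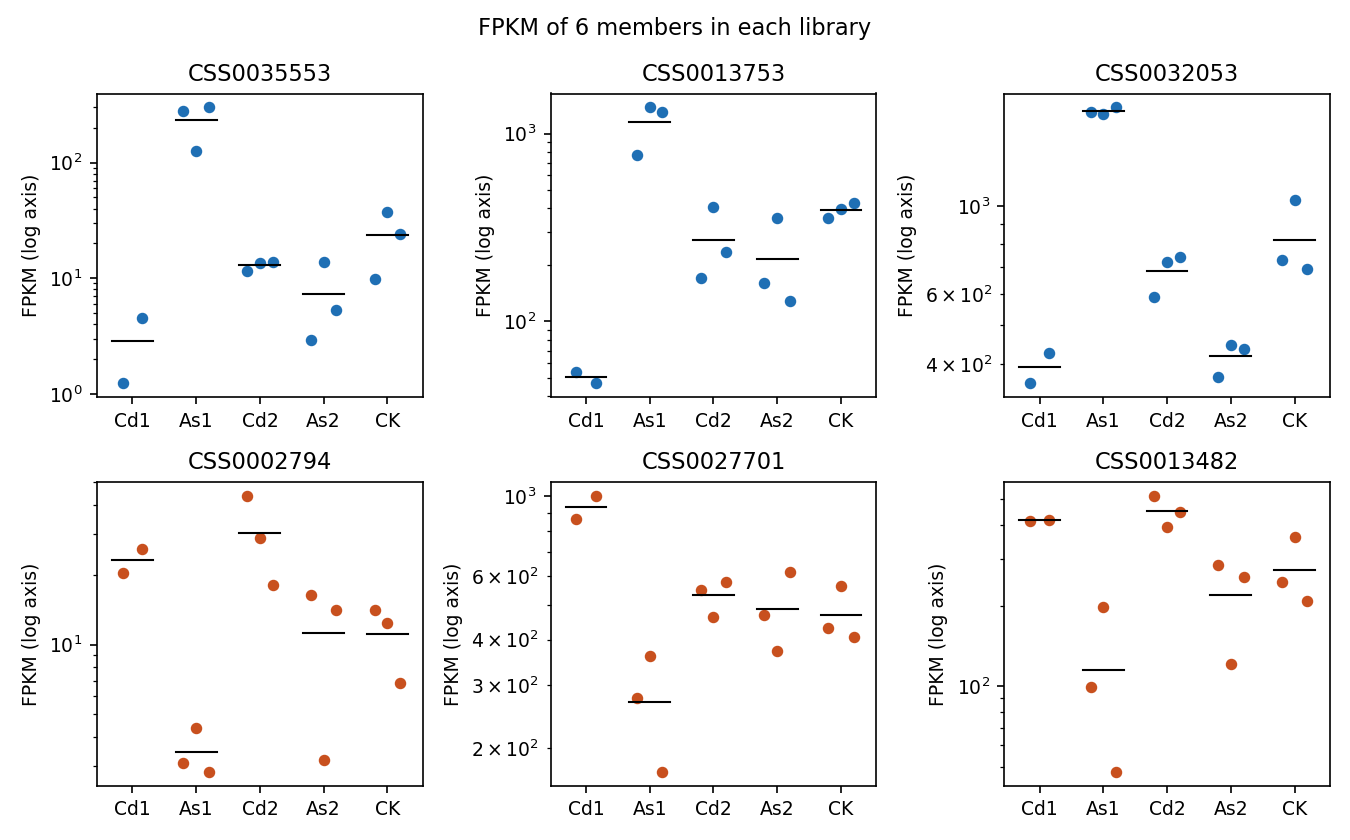
FPKM on log axes of 3 Cd-low/As-high genes (top row) and 3 Cd-high/As-low genes (bottom row), with 1 point per library and a line at the group mean. In CSS0013753 the As1 libraries reach 1380.4 FPKM and the Cd2 and As2 libraries lie near or below the CK libraries, whereas in CSS0013482 the Cd2 libraries, 394 to 515 FPKM, stay above every As2 and CK library.

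In the Cd-high/As-low genes the median distance from CK was 0.80 in Cd1 and -0.79 in As1 on the log2(FPKM + 1) scale, which shrinks the distances of genes as low as these, and the Cd1 distance was the larger in 26 of 57. With a limit of 1 in place of 0.58, 4 of these genes remained, and 26 of the Cd-low/As-high genes. Without the added 1, the median log2 ratio of the outer group means was 2.47 (Cd1 over As1, with 6 genes at 0 in As1 ranked highest), beside 2.71 in the Cd-low/As-high genes (As1 over Cd1, with 4 genes at 0 in Cd1), so the width of the lists is not ranked. The summed level was 1818 and 2053 FPKM in Cd1, 531, 712 and 350 FPKM in As1, and 987, 1255 and 903 FPKM in CK. In the fit over all 5 groups 1 of the 56 tested genes was called higher in Cd1 than in CK (0.453% of all tested genes) and 0 were called lower in As1 than in CK (1.28% of all tested genes). The called gene, unannotated gene 5557, rested on 21 and 14 fragments in Cd1 and on 6, 2 and 1 in CK. These contrasts chose the genes too, and the counts are a description.

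CSS0005524 had the widest split of these genes by the same measure, with 12.8 and 19.9 FPKM in Cd1, 3.7, 1.23 and 0.514 FPKM in As1, and 6, 10.8 and 4.03 FPKM in CK. At 15 d it had 6, 2.81 and 7.64 FPKM in Cd2 and 8.1, 4.87 and 4.46 FPKM in As2, which overlapped each other and CK. CSS0002794 kept a split toward Cd at 15 d. It had 20.3 and 25.8 FPKM in Cd1, 3.1, 4.39 and 2.83 FPKM in As1, and 14.1, 12.4 and 6.81 FPKM in CK, then 43.7, 28.8 and 18.1 FPKM in Cd2 and 16.3, 3.17 and 14.1 FPKM in As2. No As2 library reached the lowest Cd2 library in this gene.

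On the log2(FPKM + 1) scale, which shrinks the distances of lower genes more, CSS0039918 lay the farthest from CK in Cd1 among the 8 widest splits, at 1.21. CSS0039918 had 18.3 and 15.9 FPKM in Cd1, 3.2, 3.32 and 3.2 FPKM in As1, and 5.42, 9.34 and 6.16 FPKM in CK. Its 15 d libraries overlapped between the metals, with 20.8, 10.2 and 12.5 FPKM in Cd2 and 8.01, 0.997 and 11.1 FPKM in As2. In CSS0025141 both metals lay above every CK library at 15 d, with 10.3, 8.13 and 21.6 FPKM in Cd2, 34.8, 12.6 and 9.3 FPKM in As2, and 5.64, 4.37 and 6.86 FPKM in CK. At 10 d it had 10.5 and 11.6 FPKM in Cd1 and 1.18, 1.71 and 0.793 FPKM in As1. Low counts limit 3 others of the 8 widest splits. CSS0007476 had 16 and 23 fragments in Cd1, 0 in each As1 library, and 6, 9 and 6 in CK, and CSS0014559 had 23 and 14 in Cd1, 1, 2 and 0 in As1, and 6, 9 and 5 in CK. The fragments of unannotated gene 3930 were 33 and 31 in Cd1, 5, 0 and 2 in As1, and 18, 6 and 9 in CK. The remaining gene of the 8, CSS0030228, was 0.90 from CK in Cd1 and -0.92 from CK in As1.

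The 5 most abundant of these genes were CSS0027701, CSS0013482, unannotated gene 554, CSS0004214 and CSS0047150. CSS0027701 had 865 and 1003 FPKM in Cd1, 275, 361 and 172 FPKM in As1, and 432, 563 and 406 FPKM in CK. At 15 d its levels, 551, 463 and 579.9 FPKM in Cd2 and 469, 373 and 615 FPKM in As2, overlapped between the metals and with CK. CSS0013482 had 415 and 418 FPKM in Cd1, 99.3, 197 and 47.8 FPKM in As1, and 245, 360.3 and 208 FPKM in CK. In unannotated gene 554 and CSS0004214 the distances from CK were 0.70 and 0.91 in Cd1 and -0.64 in both in As1. At the limit, CSS0012128 and CSS0014247 lay just inside with smaller distances of 0.583 and 0.588, and CSS0007582 and CSS0045943 just outside with 0.577 and 0.575.

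**Figure D3:**
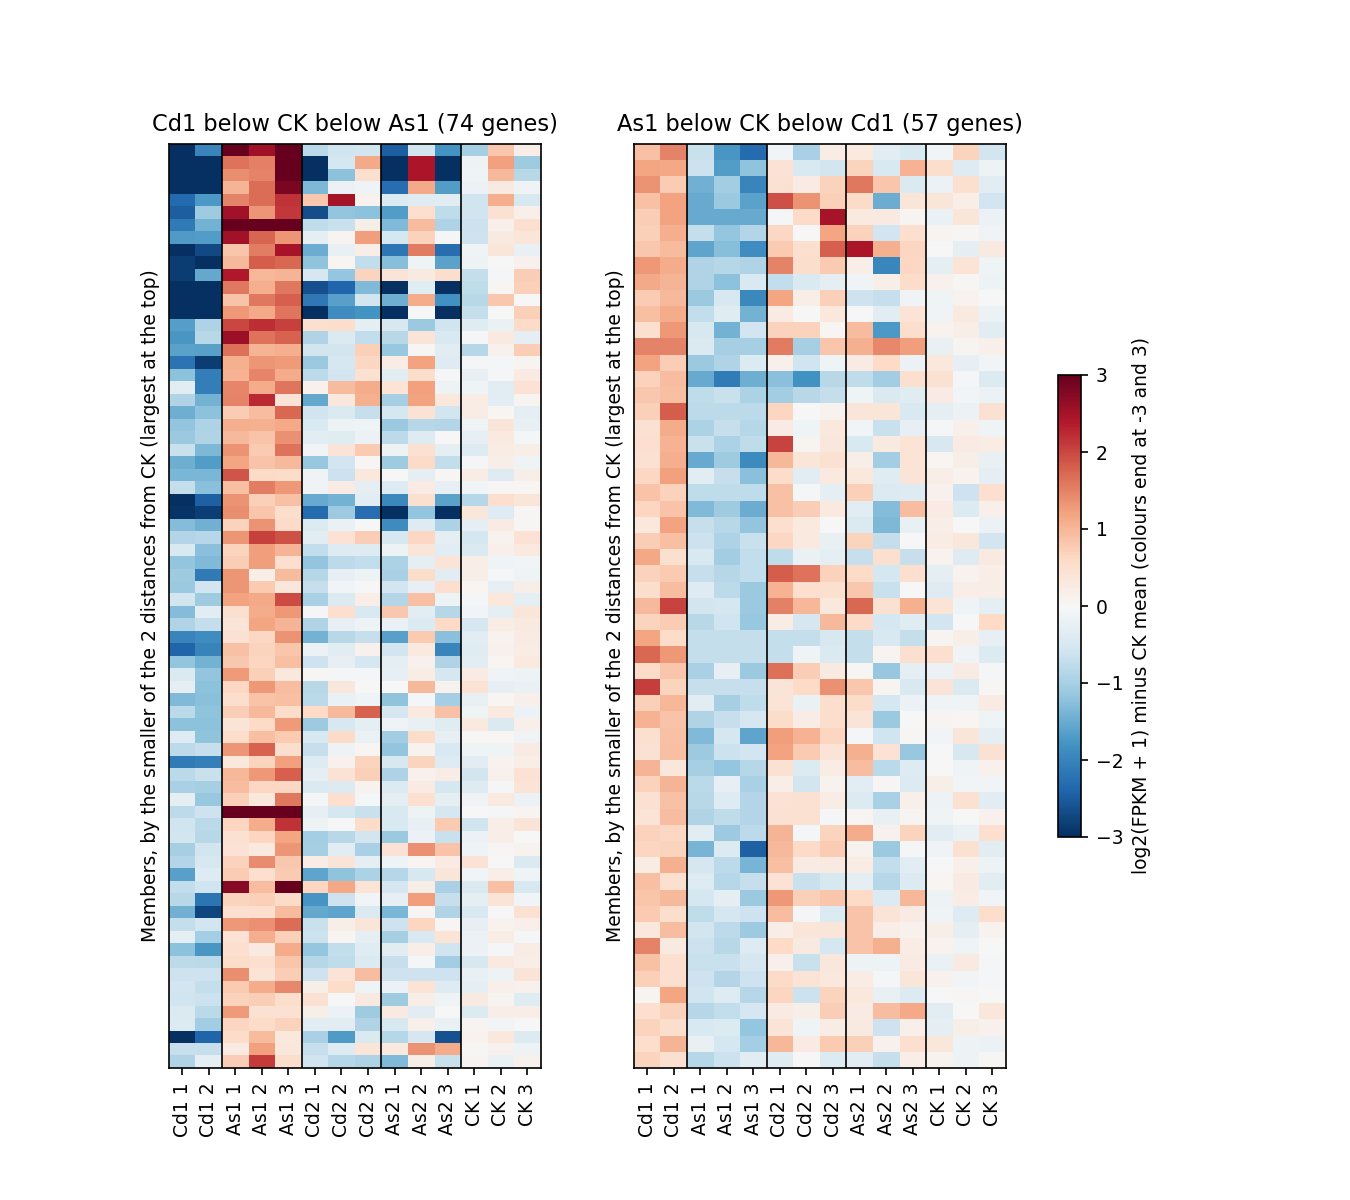
Level of each member in each of the 14 libraries as log2(FPKM + 1) minus the CK mean, with 1 row per gene and 1 column per library, red above and blue below CK, colours ending at -3 and 3. The Cd1 and As1 columns show the orders that chose the genes. At 15 d the median over the rows of the left panel is above CK only in As2 replicate 2, at 0.220. It is lowest in Cd2 replicate 1, at -0.689, followed by As2 replicates 1 and 3, at -0.622 and -0.426.

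The 15 d libraries of Cd2 and As2 took no part in the choice, and Cd2 against As2 is the comparison that can be tested on these genes. In the Cd-low/As-high genes the median of Cd2 minus As2 was 0.056 on the log2(FPKM + 1) scale (quartiles -0.346 and 0.372), against -0.012 in all tested genes (quartiles -0.277 and 0.257). In the Cd-high/As-low genes the median of Cd2 minus As2 was 0.253 (quartiles -0.108 and 0.699). The 10 d medians of Cd1 minus As1, -2.24 and 1.64, were chosen to be far from 0, so a smaller value at 15 d was built into the choice and is not read as a loss of the split.

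No member passed the test at 15 d, but neither did any other gene, so the count of 0 does not show that the metals acted alike on the members. In limma-trend over the 6 libraries, with Benjamini-Hochberg adjustment over 33109 genes, 0 of the 74 Cd-low/As-high genes were called lower in Cd2 than in As2 (0.0% of all tested genes) and 0 of the 56 Cd-high/As-low genes were called higher in Cd2 (0.0% of all tested genes). With an unadjusted p under 0.05 and a change over 2-fold, 2 of the 74 were lower in Cd2 (2.02% of all tested genes) and 2 were higher, and 6 of the 56 were higher in Cd2 (2.08% of all tested genes) and 0 were lower. The fit over all 5 groups and limma-voom on recovered fragments also called 0 members in either direction. Every Cd2 library was below every As2 library in 3 of the 74, or 4.05% (10.2% of all tested genes). It was above every As2 library in 4, or 5.41% (9.7% of all tested genes). In the Cd-high/As-low genes every Cd2 library was above every As2 library in 9 of 56, or 16.1% (9.7% of all tested genes). In 2, or 3.57%, every Cd2 library was below (10.2% of all tested genes).

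**Figure D4:**
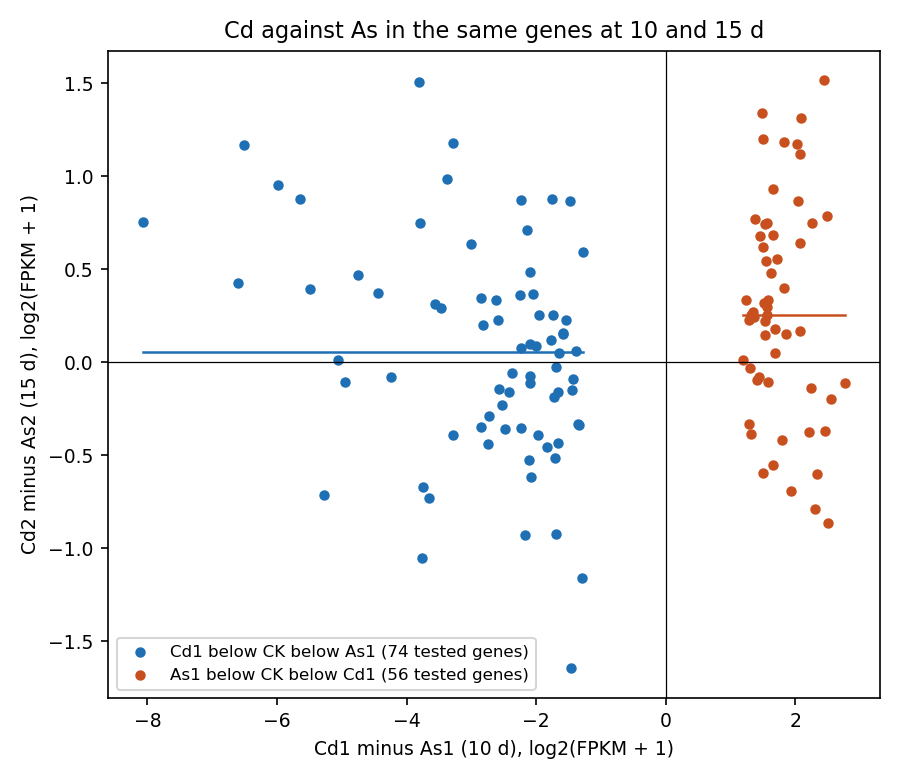
Cd1 minus As1 at 10 d (x axis) against Cd2 minus As2 at 15 d (y axis) on the log2(FPKM + 1) scale, with 1 point per tested member and a coloured line at the median of each list on the y axis. The x positions follow from the choice of the genes. On the y axis the Cd-low/As-high genes centre on 0.056 and the Cd-high/As-low genes on 0.253.

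The Cd-low/As-high gene with the smallest p at 15 d was unannotated gene 2304. It had 0.843, 1.96 and 0.878 FPKM in Cd2 and 3.99, 8.45 and 5.64 FPKM in As2, beside 0.838 and 1.53 FPKM in Cd1, 3.98, 3.51 and 8.23 FPKM in As1, and 2.38, 2.75 and 2.93 FPKM in CK. Both metals lay on the same sides of CK at both times. The difference of Cd2 from As2 was -1.64 ± 0.33 (SE, adjusted p = 0.189 in limma-trend), which missed the threshold.

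In the most abundant Cd-low/As-high gene, CSS0032053, the order of the metals was turned round at 15 d, with 589.8, 723 and 741 FPKM in Cd2 and 371, 445 and 436 FPKM in As2. The difference of Cd2 from As2 was 0.71 ± 0.19 (SE, adjusted p = 0.223 in limma-trend). CSS0018379 had the same turn, with 8.39, 12.4 and 6.95 FPKM in Cd2 and 3.21, 5.74 and 2.05 FPKM in As2, where it had 2.55 and 2.96 FPKM in Cd1 and 38.6, 10.4 and 107 FPKM in As1. Its difference at 15 d was 1.18 ± 0.34 (SE, adjusted p = 0.240 in limma-trend).

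The 3 Cd-high/As-low genes with the smallest p at 15 d all kept Cd above As. CSS0047150 had 41.4, 35.4 and 26.7 FPKM in Cd2 and 16, 10.7 and 17.2 FPKM in As2, beside 23.7 and 31.5 FPKM in Cd1, 6.05, 11.2 and 4.94 FPKM in As1, and 15.6, 21.9 and 13.5 FPKM in CK. Cd lay above every CK library at both times, and As2 overlapped CK. The difference of Cd2 from As2 was 1.19 ± 0.24 (SE, adjusted p = 0.188 in limma-trend). CSS0038731 had 10.2, 4.71 and 7.2 FPKM in Cd2, 2.22, 2.08 and 3.6 FPKM in As2, and 3.55, 4.37 and 4.01 FPKM in CK. Its difference was 1.18 ± 0.31 (SE, adjusted p = 0.223 in limma-trend), with every Cd2 library above CK. CSS0013482 had 515, 394 and 449.7 FPKM in Cd2 and 283, 121 and 256 FPKM in As2. Its difference was 1.12 ± 0.33 (SE, adjusted p = 0.238 in limma-trend), and its As2 libraries overlapped CK.

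The 15 d levels of the members were also compared with CK. The rule put Cd1 and As1 at least 0.58 from CK at 10 d, so smaller distances at 15 d were built into the choice. They are not read as a return to untreated levels. Cd2 and As2 are set against the same CK libraries that chose the members, so these values are a description. The median distance of the Cd-low/As-high genes was -0.34 in Cd2 and -0.29 in As2. Both metals were below CK in 48 of 74, or 64.9%, against 31.6% of all tested genes. Cd2 below with As2 above CK, the 10 d order, was found in 9, or 12.2%, against 17.6% of all tested genes. The Cd-high/As-low genes had a median distance of 0.34 in Cd2 and -0.03 in As2. Of these 56 genes, 22 had Cd2 above and As2 below CK, or 39.3%, against 17.7% of all tested genes. Another 22, or 39.3%, had both metals above CK, against 33.0% of all tested genes. The group means of Cd2 and of As2 each lay between those of Cd1 and As1 in 70 of the 74 Cd-low/As-high genes, or 94.6%. In the Cd-high/As-low genes this held for Cd2 in 45 of 56, or 80.4%, and for As2 in 54 of 56, or 96.4%. Over all tested genes it held for Cd2 in 35.2% and for As2 in 38.4%. Since the choice set Cd1 and As1 far apart, high shares were built in here too.

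Within the groups at 15 d the members moved together from library to library. As2 replicate 2 was the highest As2 library in 56 of the 74 Cd-low/As-high genes, or 75.7%, against 31.8% of all tested genes, and the lowest in 37 of the 56 Cd-high/As-low genes, or 66.1%, against 33.0%. Cd2 replicate 1 was the lowest Cd2 library in 54 of the 74, or 73.0%, against 33.7%, and the highest in 34 of the 56, or 60.7%, against 33.0%. As2 replicate 2 thus stood to the other As2 libraries as As1 stood to CK, and Cd2 replicate 1 to the other Cd2 libraries as Cd1 stood to CK. Cd2 replicate 1 is the library deposited under both labels, taken as Cd2 because both files name Cd2 replicate 1 in their header. It had 39579 genes above 0, and the study's count of expressed genes for Cd2 replicate 1 is nearer to this than its count for Cd1 replicate 3. The values of Cd2 against As2 rest on that reading. The median range over the 3 As2 libraries was 1.21 in the Cd-low/As-high genes and 1.04 in the Cd-high/As-low genes, against 0.62 in all tested genes. Over the 3 Cd2 libraries it was 0.90 and 0.75, against 0.49.

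The summed level of the Cd-low/As-high genes was 3187, 4416 and 4976 FPKM in Cd2 and 2621, 6846 and 3215 FPKM in As2. By this sum As2 replicate 2 stood above the CK libraries and As2 replicates 1 and 3 below them. The total FPKM differed between libraries. As a share of that total, As2 replicate 2 lay within the CK range, at 0.819% against 0.578%, 0.837% and 0.837% in CK. As2 replicates 1 and 3 stayed below CK, at 0.376% and 0.395%. Leaving out As2 replicate 2 moved the median of Cd2 minus As2 to 0.273 in these genes and to 0.089 in the Cd-high/As-low genes. Leaving out As2 replicate 1 moved it to -0.154 and 0.438. The direction of the median in the Cd-low/As-high genes was therefore set by single libraries, and it was also below 0 without As2 replicate 3 (-0.142), Cd2 replicate 2 (-0.038) or Cd2 replicate 3 (-0.081). Without Cd2 replicate 1 the medians were 0.146 and 0.120, and in the Cd-high/As-low genes the median stayed above 0 whichever of the 6 libraries was left out. Depth and the number of genes above 0 in As2 replicate 2, 12099167 fragments and 38725 genes, lay within the range of the other libraries. What sets this library apart was not tested.

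**Figure D5:**
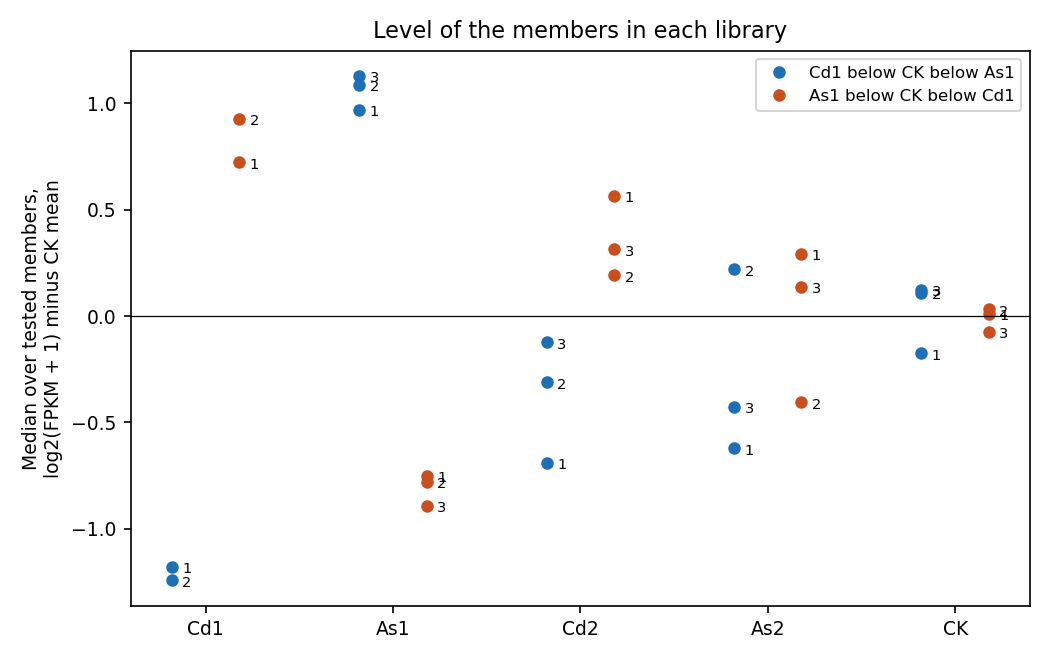
Median over the tested members of log2(FPKM + 1) minus the CK mean (y axis) in each library, by group (x axis), with replicate numbers beside the points. The Cd-low/As-high genes lie between -0.622 and 0.220 in the As2 libraries, with As2 replicate 2 at the top, and the Cd-high/As-low genes between -0.406 and 0.291, with the same library at the bottom.

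Of the 22 genes for which the study's text gives a family (MYB, AP2/ERF, bHLH, galactinol and raffinose synthases, NCED, HIPP and CBL), 0 are members. Members make up 131 of all 59128 genes, so a count of 0 among 22 says nothing about these families. The study chose these genes on the same samples. In the fit over all 5 groups 13 of the 22 were called lower (2.73% of all tested genes) and 1 higher (0.453%) in Cd1 than in CK. For As1 against CK, 12 were called lower (1.28% of all tested genes) and 1 higher (0.338%). Between Cd2 and As2, 0 were called (0.0% of all tested genes in each direction). In 1 of them, the MYB gene CSS0032956, the group means lay on opposite sides of CK. It had 7.09 and 14.1 FPKM in Cd1, 2.14, 2.85 and 0.452 FPKM in As1, and 9.28, 8.38 and 5.31 FPKM in CK. Its Cd1 libraries overlapped CK, which kept it out of the Cd-high/As-low genes.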

How the data were processed

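RNA was sequenced from 15 labelled root libraries in 5 groups. After trimming, the authors mapped reads with HISAT to the tea genome (version not given in the sources used here) and deposited FPKM values per gene, which the study describes as calculated with the DESeq2 package. How reads of similar or overlapping genes were counted is not given in those sources either. No column of the authors' own comparisons was used. The deposited annotation holds another gene set and was not used, and 0 of the 50525 CSS identifiers matched RefSeq genes. Levels were compared as log2(FPKM + 1), which understates the change of low genes. Whole fragments were recovered from the FPKM steps and served for depth and for limma-voom (10483112 to 13846717 fragments per library).

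The members and lists were chosen with earlier results of these data known. Orders and group means at 10 d used 2 Cd1, 3 As1 and 3 CK libraries. Cd2 was tested against As2 with limma 3.58.1 (R 4.3.3, lmFit and eBayes with trend) over the 6 libraries at 15 d, on 33109 genes with at least 1 FPKM in at least 3 of 14 libraries, and called at a Benjamini-Hochberg FDR under 0.05 and an absolute log2 fold change over 1. Calls against CK came from a fit over all 5 groups. The scripts were tested on simulated data. With the spread of the 6 libraries at 15 d and 200 changed genes, the test of Cd2 against As2 recovered 0 at a log2 change of 1. It recovered 125 at a log2 change of 2 and 165 at 3, so changes near 2-fold are missed by this test. Orders, medians and counts used Python 3.11.15, with numpy 2.4.6 and pandas 2.3.3. Genes were named by rule, per list the 8 with the largest smaller distance from CK, the 5 with the highest mean FPKM, the 3 with the smallest p in Cd2 against As2, and the 2 nearest to the limit on each side. The genes named for calls in 5 or fewer members, for failing the filter or for a turned order at 15 d, and CSS0032956, were picked after their values were seen. Alternatives varied the pseudocount, the distance limit, the filter, the scaling, the libraries, the replicate block and the tool.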

Additional observations from a re-analysis of the deposited data

Results flagged for a closer look

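In 6 members the metals lay in one order in every library at 10 d and in the opposite order in every library at 15 d. The difference between the times was not tested. Among the Cd-low/As-high genes, every Cd2 library was above every As2 library in 4, with Cd2 minus As2 at 1.51 in unannotated gene 7033, 1.18 in CSS0018379, 0.99 in CSS0047498 and 0.71 in CSS0032053 on the log2(FPKM + 1) scale. In unannotated gene 7033 the levels were 24.4, 80.2 and 14.6 FPKM in Cd2 and 9.82, 10.2 and 10.5 FPKM in As2, and in CSS0047498 they were 11.8, 12.2 and 6.52 FPKM in Cd2 and 5.5, 3.19 and 5.04 FPKM in As2. Among the Cd-high/As-low genes, every Cd2 library was below every As2 library in 2, with Cd2 minus As2 at -0.69 in CSS0041925 and -0.55 in CSS0012583. CSS0041925 had 1.51, 2.11 and 2.43 FPKM in Cd2 and 2.86, 3.73 and 5.14 FPKM in As2, and CSS0012583 had 0, 0.144 and 0.258 FPKM in Cd2 and 0.88, 0.507 and 0.603 FPKM in As2. The values of CSS0012583 rest on 0, 2 and 4 fragments in Cd2 and on 12, 7 and 8 in As2. The genes with a turned order are 5.41% of the 74 Cd-low/As-high genes and 3.57% of the 56 tested Cd-high/As-low genes. Of all tested genes, 9.7% had every Cd2 library above and 10.2% below every As2 library. The member shares lie below these, so the 6 genes are not read as a trait of the members.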

How the results depend on the processing

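The number of Cd-low/As-high genes was 278 with no limit on the distance and 26 with a limit of 1, and that of Cd-high/As-low genes was 272 and 4. Leaving out 1 library each gave 102 to 169 and 80 to 283 genes, all above the reported 74 and 57, since fewer libraries have to keep the order. A pseudocount of 0.1 gave 140 Cd-high/As-low genes. Quantile normalization gave 64 and 49 genes, of which 49 and 35 were among the reported 74 and 57.

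The count of members called between Cd2 and As2, in either direction, was 0 under every alternative run that kept the adjusted threshold, and 2 Cd-low/As-high genes (lower in Cd2) and 6 Cd-high/As-low genes (higher in Cd2) passed at an unadjusted p under 0.05. Over all genes the unadjusted p gave 668 lower and 688 higher in Cd2, the fit with no filter called 2 higher, the fit over all 5 groups called 1 higher, and leaving out 1 library gave 0 to 1 lower (1 without Cd2 replicate 1). Leaving out 1 library each moved the median of Cd2 minus As2 between -0.154 and 0.273 in the Cd-low/As-high genes and between 0.089 and 0.438 in the Cd-high/As-low genes. With limma-voom the medians were 0.069 and 0.395.

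With the replicate block the medians stayed at 0.056 and 0.253 and 0 members were called. The deviations of same-numbered Cd2 and As2 libraries correlated at 0.278, -0.013 and -0.051 across genes. For differently numbered libraries the correlations lay between -0.261 and 0.249. Whether the numbers pair the samples cannot be told from these values. With 2 libraries, Cd1 constrains the order less than the other groups do. Members with under 10 fragments in a library of CK or of the low group may fall on either side of the limit by counting error.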
